A study of Mus musculus with 12 samples.

Results

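The genes described here mark the striatal projection neurons of the indirect pathway, which project to the external pallidum and carry the dopamine D2 receptor. Of 9 listed marker genes, 7 were analysed, found among 25428 probe sets by gene identifier and symbol: the neuropeptide precursor gene Penk, the receptor genes Drd2 and Gpr6, the transcription factor genes Six3, Sp8 and Sp9, and the phosphatase gene Ptprm. The annotation used names no probe set for Gpr52 and 1 further gene of the list, which are not analysed here. Expression was measured in 12 samples of mouse striatum at embryonic day 18.5, on the C57BL/6J background, with 1 array of 1 colour each. The titles call them biological replicates, and each is taken here as 1 embryo. The 6 wild-type (WT) embryos are labelled as such and nothing else. The 6 knockout embryos, called cKO here, are labelled Nestin-Cre (Foxp1-/-). In them Cre recombinase is driven from Nestin sequences, which are active in neural progenitors, so loss of the transcription factor Foxp1 would extend to neurons and glia of the whole region and not to one projection neuron class. The labels do not say that WT embryos carried Cre, so effects of Cre and of Foxp1 loss cannot be told apart. Values are log2 expression, in which a difference of 1 is a doubling, and changes are cKO minus WT.

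In the striatum, projection neurons divide into a direct and an indirect class, which are born in the lateral ganglionic eminence and later intermingle. Indirect-pathway neurons release GABA and enkephalin, and dopamine dampens them through the D2 receptor, which couples to inhibitory G proteins and lowers cAMP. Six3, Sp8 and Sp9 act earlier, as transcription factors needed for the production of these neurons. Other cells also use some of these genes: cholinergic interneurons express Drd2, and Sp8 is found in neuroblasts bound for the olfactory bulb and in interneuron precursors.

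In the cKO striatum the members did not move as one. Penk and Six3 were higher in cKO, by 0.38 and 0.37 log2 units, Sp9 and Sp8 were higher by 0.16 and 0.08, Drd2 differed by 0.04, and Ptprm and Gpr6 were lower, by 0.12 and 0.32. None of the 7 passed an adjusted p of 0.05 in limma, a linear model fitted over all probe sets, where 0.728% of the 25428 passed (0.299% higher and 0.429% lower). Before adjustment 5 of 7 had p under 0.05, against 10.7% of all probe sets. Of these, 3 were higher (5.06% of all) and 2 lower (5.67% of all). The median change of the 7 was 0.085, against -0.00077 over all probe sets. The median size of change, sign ignored, was 0.161 for the 7, 0.0205 over all probe sets and 0.0456 over the brighter 12714. In these bulk samples, fewer cells of a type and less RNA per cell cannot be told apart.

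Foxp1, the targeted gene, averaged 11.14 ± 0.17 over WT and 10.23 ± 0.08 over cKO arrays (SD, n = 6 each), with no overlap (limma adjusted p = 0.000170). The change was -0.91 ± 0.07 (SE), or 1.88-fold lower, so signal of its probe set remained in cKO, above the array median of 5.71. Correlations between arrays ran from 0.992 to 0.998. The spread between embryos was smaller in cKO than in WT for 6 of the 7 members, all but Sp9. The same held for 67.6% of the probe sets above the median mean. Across these, the median ratio of the cKO to the WT SD was 0.794.

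Penk encodes proenkephalin, the precursor of the opioid peptides of indirect-pathway neurons. WT replicates 1 to 6 read 10.34, 10.43, 10.69, 10.39, 10.14 and 10.39 on the log2 scale. In cKO, replicates 1 to 6 gave 10.83, 10.79, 10.61, 10.85, 10.71 and 10.86. The groups overlapped only through WT replicate 3, the highest WT array, and cKO replicate 3, the lowest cKO array. The other 5 cKO arrays lay above every WT array. Penk thus averaged 10.40 ± 0.18 over WT and 10.78 ± 0.10 over cKO arrays (SD, n = 6 each). The change was 0.38 ± 0.08 (SE) or 1.30-fold (95% interval 0.21 to 0.55, limma adjusted p = 0.0501). Over 22 alternative settings the adjusted p ran from 0.00986 to 0.185, and 5 of them passed.

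**Figure D1:**
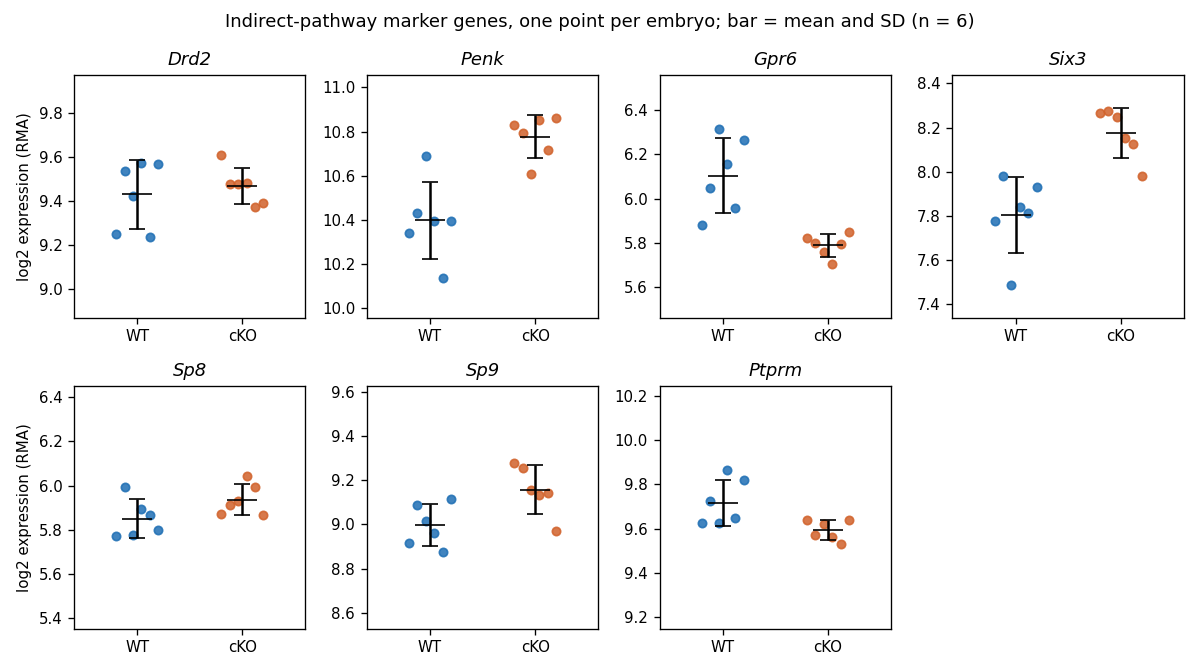
Log2 expression (RMA) of the 7 indirect-pathway marker genes, with a point for each of the 6 WT and 6 cKO embryos and a bar for the mean and SD; every panel spans the same range of log2 units. Gpr6 is the panel whose groups share no value, and 5 of 6 cKO points of Penk lie above every WT point.

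Among the receptors, Drd2 and Gpr6 differed in what they showed. Drd2 encodes the dopamine D2 receptor. Its WT replicates 1 to 6 read 9.25, 9.54, 9.42, 9.57, 9.24 and 9.57, and its cKO replicates 9.61, 9.48, 9.48, 9.48, 9.37 and 9.39. WT replicates 1 and 5 were the lowest arrays and cKO replicate 1 the highest, and the groups overlapped. The change was 0.04 ± 0.07 (SE), with a 95% interval from -0.11 to 0.18 (limma adjusted p = 0.896), and it was -0.0017 without WT replicate 5.

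Gpr6 encodes an orphan receptor that couples to stimulatory G proteins and is active without a known ligand being added. Its WT replicates 1 to 6 read 5.88, 6.05, 6.32, 6.16, 5.96 and 6.26. In cKO they gave 5.82, 5.80, 5.76, 5.71, 5.80 and 5.85. All 6 cKO arrays lay below the lowest WT array, replicate 1. Gpr6 was the only one of the 7 members whose groups did not overlap, which was so for 1.38% of all probe sets. Gpr6 averaged 6.10 ± 0.17 over WT and 5.79 ± 0.05 over cKO arrays (SD, n = 6 each). The change was -0.32 ± 0.07 (SE), or 1.25-fold lower (95% interval -0.47 to -0.17, limma adjusted p = 0.0651). The cKO values lay near 5.71, the median over the arrays. Gpr6 passed when dim probe sets were left out (adjusted p = 0.0234, where 2.19% of the probe sets tested passed), with a trended, robust prior (adjusted p = 0.0195, where 0.999% passed) and without WT replicate 1 (adjusted p = 0.0200), within a range from 0.0195 to 0.251 over 22 alternatives.

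Among the transcription factors, Six3 had the largest change. It encodes a homeobox protein needed for the development of indirect-pathway neurons. WT replicates 1 to 6 read 7.78, 7.98, 7.49, 7.84, 7.81 and 7.93, and cKO replicates 8.26, 8.28, 8.25, 8.15, 8.13 and 7.98. WT replicate 3 was the lowest array, and cKO replicate 6 equalled the highest WT array, replicate 2, while the other 5 cKO arrays lay above it. Six3 thus averaged 7.81 ± 0.17 over WT and 8.18 ± 0.11 over cKO arrays (SD, n = 6 each). The change was 0.37 ± 0.08 (SE) or 1.29-fold (95% interval 0.20 to 0.54, limma adjusted p = 0.0601). The adjusted p ran from 0.0173 to 0.225 over 22 alternatives, 3 of which passed.

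Sp9 and Sp8 encode related zinc finger factors. For Sp9 the WT arrays, in replicate order, gave 8.92, 9.09, 9.02, 8.96, 8.88 and 9.12, and those of cKO gave 9.28, 9.26, 9.16, 9.13, 9.14 and 8.97. As with Six3, cKO replicate 6 was the lowest cKO array and lay within the WT range, and the other 5 lay above it. The change of Sp9 was 0.16 ± 0.06 (SE), or 1.12-fold (95% interval 0.04 to 0.28, limma adjusted p = 0.288). Sp8 spanned 5.77 to 6.00 over WT arrays (median 5.83) and 5.87 to 6.04 over cKO arrays (median 5.92). Its groups overlapped, and both lay near the median of the arrays. The change was 0.08 ± 0.04 (SE), with an interval from -0.01 to 0.18 (limma adjusted p = 0.521).

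Ptprm encodes a receptor tyrosine phosphatase that also mediates adhesion between cells carrying it. WT replicates 1 to 6 read 9.62, 9.72, 9.62, 9.87, 9.65 and 9.82, and cKO replicates 9.64, 9.57, 9.62, 9.56, 9.53 and 9.64. WT replicates 2, 4, 5 and 6 lay above every cKO array, while WT replicates 1 and 3 lay within the cKO range. The change was -0.12 ± 0.04 (SE), or 1.09-fold lower (95% interval -0.22 to -0.03, limma adjusted p = 0.307).

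**Figure D2:**
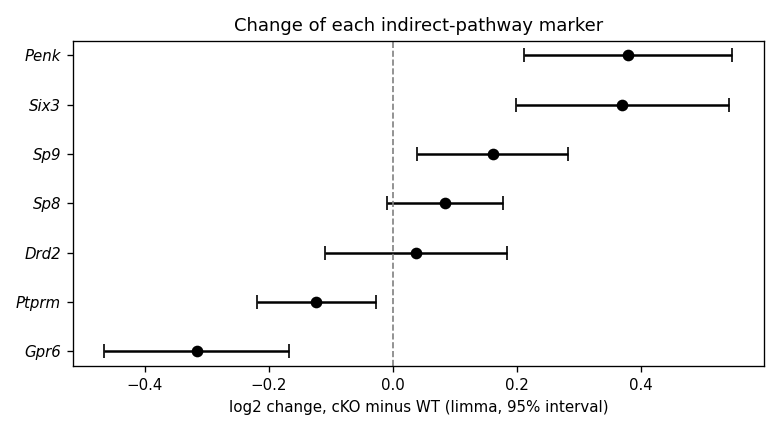
Log2 change of each member, cKO minus WT (horizontal axis), as a point with limma's 95% interval from 6 embryos per genotype; the dashed line marks no change. The intervals of Drd2 and Sp8 include 0, and those of Penk and Six3 lie on the other side of 0 from those of Gpr6 and Ptprm.

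Promoter windows show what sequence lies at the start of these genes. They were taken from RefSeq on GRCm38.p6 and are the 250 bases before each annotated start, 5′ to 3′ on the gene's strand. Of the 7 members 6 had a window, all but Penk, and Sp8 had 3. Printed are the windows of Six3 (chr17:85620584-85620833, plus strand) and Gpr6 (chr10:41072291-41072540, minus strand), which had the largest changes among these 6. Beside them are Drd2 (chr9:49340153-49340402, plus strand), Sp9 (chr2:73271676-73271925, plus strand) and Ptprm (chr17:67354460-67354709, minus strand), which form the most positively correlated pairs described below. Capitals mark matches, on both strands (read as ATTA and CCGCCC on the other), to TAAT, the core bound by homeobox proteins, and to GGGCGG, the GC box bound by Sp factors.
Six3: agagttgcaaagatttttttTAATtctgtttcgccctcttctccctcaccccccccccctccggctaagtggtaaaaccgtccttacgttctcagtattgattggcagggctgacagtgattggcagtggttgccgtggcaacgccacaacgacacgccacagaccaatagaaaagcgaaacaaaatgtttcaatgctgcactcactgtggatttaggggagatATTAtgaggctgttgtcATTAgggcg
Sp9: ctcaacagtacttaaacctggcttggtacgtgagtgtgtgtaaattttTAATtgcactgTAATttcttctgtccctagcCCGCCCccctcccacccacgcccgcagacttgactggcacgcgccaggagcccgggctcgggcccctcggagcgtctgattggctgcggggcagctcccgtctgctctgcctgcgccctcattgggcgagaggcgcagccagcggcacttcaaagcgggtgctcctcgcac
Gpr6: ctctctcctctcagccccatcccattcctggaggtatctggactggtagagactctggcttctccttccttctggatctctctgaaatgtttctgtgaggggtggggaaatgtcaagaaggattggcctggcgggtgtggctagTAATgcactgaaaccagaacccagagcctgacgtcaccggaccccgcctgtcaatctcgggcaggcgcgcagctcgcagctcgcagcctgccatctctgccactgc
Drd2: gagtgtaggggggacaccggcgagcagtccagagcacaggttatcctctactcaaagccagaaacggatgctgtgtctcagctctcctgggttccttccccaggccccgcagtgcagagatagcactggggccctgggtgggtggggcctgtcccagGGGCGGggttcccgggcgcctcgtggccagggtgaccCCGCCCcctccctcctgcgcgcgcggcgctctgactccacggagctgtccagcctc
Ptprm: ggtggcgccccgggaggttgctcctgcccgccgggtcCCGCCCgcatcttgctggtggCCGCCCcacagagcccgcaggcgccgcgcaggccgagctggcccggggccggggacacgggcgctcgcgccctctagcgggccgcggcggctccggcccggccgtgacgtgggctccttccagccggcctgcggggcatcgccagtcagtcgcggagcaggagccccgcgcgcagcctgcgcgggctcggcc
The TAAT core was present in 5 of the 8 member windows, against 54.9% of all 32851 windows of the table, and the GC box in 4 of 8, against 32.7%. Six3 held 3 TAAT matches and no GC box, while Drd2 and Ptprm each held 2 GC boxes and no TAAT match. The forkhead sequence GTAAACA was in 0 of the 8, against 3.17% of all windows. No base was shared by matches to different motifs. A match describes letters in a window, not a bound site.

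The changes were then set against each other. For each pair of members, the difference between both genes was taken on each array and compared between the genotypes by exact permutation (two-sided, 924 assignments of the arrays). The smallest p this allows is 0.00216, and p-values were adjusted over the 21 pairs. In 18 of the 21 pairs the changes differed at an adjusted p under 0.05, and in 8 pairs the array differences of the genotypes did not overlap. The pairs share genes and are not independent, and most of these 8 contain Gpr6, whose own groups did not overlap. No share over pairs of other probe sets is given beside these counts. The widest gap was between the enkephalin precursor and the orphan receptor: the change of Penk exceeded that of Gpr6 by 0.70 ± 0.07 (SE; exact permutation adjusted p = 0.00568). Six3 exceeded Gpr6 by 0.69 ± 0.13 with the same adjusted p from the exact test.

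Within functional pairs the changes also came apart. Among the receptors, Drd2 exceeded Gpr6 by 0.35 ± 0.07 (exact permutation adjusted p = 0.00568). Penk exceeded Drd2 by 0.34 ± 0.09 (exact permutation adjusted p = 0.0121). Among the transcription factors, Six3 exceeded Sp9 by 0.21 ± 0.07 (exact permutation adjusted p = 0.00568; 0.13 without WT replicates 3 and 6) and Sp8 by 0.29 ± 0.08 (exact permutation adjusted p = 0.0121). Ptprm lay 0.16 ± 0.05 below Drd2 (exact permutation adjusted p = 0.0121) and 0.19 ± 0.07 above Gpr6 (exact permutation adjusted p = 0.00909; 0.10 without WT replicates 3 and 6).

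For 3 pairs no difference was found. Penk and Six3 differed by 0.01, with a 95% interval from -0.31 to 0.33 (exact permutation adjusted p = 0.946), so these arrays allow a difference of up to 0.33 between them. Sp9 and Sp8 differed by 0.08 (interval for Sp8 minus Sp9 -0.24 to 0.08, exact permutation adjusted p = 0.328). Sp8 and Drd2 differed by 0.05 (interval for Drd2 minus Sp8 -0.22 to 0.13, exact permutation adjusted p = 0.577). The gaps of 0.12 between Sp9 and Drd2 (exact permutation adjusted p = 0.0321) and 0.22 between Penk and Sp9 (exact permutation adjusted p = 0.0379) kept their sign in all 16 alternatives, but the adjusted p missed the threshold in 10 and 9 of them. Their sizes ran from 0.089 to 0.146 for Sp9 over Drd2 and from 0.165 to 0.273 for Penk over Sp9. Over all arrays Gpr6 and Sp8 averaged 0.23 and 0.18 above the array median and the other members 2.28 or more, and the part of low signal in the gaps of Gpr6 and Sp8 was not tested.

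**Figure D3:**
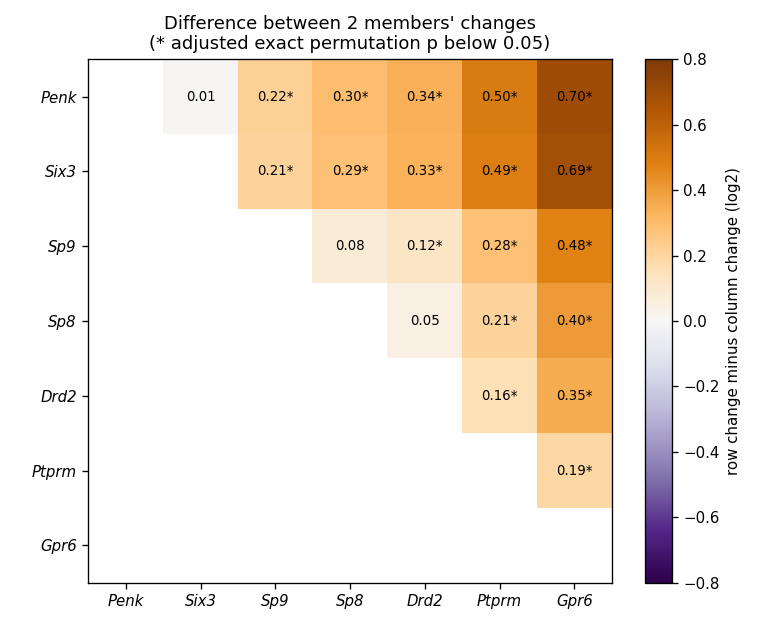
Difference between the log2 changes (cKO minus WT) of each pair of members, the row gene's change minus the column gene's, with colour and number giving the size; a star marks an adjusted exact permutation p under 0.05 over 21 pairs. The row of Penk runs from 0.01 against Six3 to 0.70 against Gpr6.

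Covariation was measured after the mean of each genotype had been removed, so that the genotype difference itself could not produce it. Over the 12 arrays, 16 of the 21 pairs had a positive Pearson r and 5 a negative one. The median r was 0.37, with quartiles of 0.042 and 0.444. Over all pairs of the 12714 probe sets above the median mean, the median r was -0.001, with quartiles of -0.256 and 0.256. By permutation of the arrays within genotype, 0 of the 21 pairs passed after adjustment (smallest permutation adjusted p = 0.215), and 2 had an unadjusted p under 0.05 by r.

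Drd2 was in both. It correlated with Ptprm at r = 0.76 (permutation p = 0.0283, adjusted p = 0.297) and rho = 0.65 (permutation p = 0.0387, adjusted p = 0.405). It correlated with Sp9 at r = 0.72 (permutation p = 0.0102, adjusted p = 0.215) and rho = 0.57 (permutation p = 0.0798, adjusted p = 0.405). Without WT replicates 1 and 5, the arrays farthest from the median of Drd2, r was 0.64 with Ptprm and 0.58 with Sp9. By rho, the pairs with an unadjusted p under 0.05 were Drd2 with Ptprm and Six3 with Sp9, the latter with rho = 0.71 (permutation p = 0.0196, adjusted p = 0.405) and r = 0.55 (permutation p = 0.0647, adjusted p = 0.377). That r depended on 1 embryo: without WT replicate 3, the lowest Six3 array, it was 0.92 (permutation adjusted p = 0.0136).

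Penk and Six3, the members with the largest positive changes, had a negative r between embryos. It was -0.52 over 12 arrays (permutation p = 0.157, adjusted p = 0.591) and rho was -0.16 (permutation p = 0.650, adjusted p = 0.853). Pearson r was -0.57 in WT and -0.38 in cKO. WT replicate 3, highest for Penk and lowest for Six3, carried much of it: r was 0.024 without that array. With Gpr6, Penk had r = 0.63 (permutation p = 0.0718, adjusted p = 0.377) and rho = 0.59 (permutation p = 0.0641, adjusted p = 0.405). Both had their highest WT array in replicate 3, and r was 0.21 without WT replicates 3 and 5, so the relation rested on these arrays. Penk and Gpr6 thus differed in the sign of their genotype change while their r between embryos was above 0.

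The genotypes were also taken apart, with 6 arrays each and a smallest possible exact p of 0.00278. The median r was 0.39 in WT and -0.05 in cKO, and 11 of the 21 pairs had the same sign in both. The background of r was taken over all arrays and not within a genotype, so these medians have none beside them. No difference between the genotypes in r was tested. In WT 0 pairs had an unadjusted exact permutation p under 0.05, with Drd2 and Ptprm highest (r = 0.83, exact permutation p = 0.0639). In cKO there were 2: Six3 and Sp9 (r = 0.94, exact permutation p = 0.00556) and Gpr6 and Sp8 (r = -0.85, exact permutation p = 0.0292), of which the smaller had an adjusted p of 0.117 over the 21 pairs in the exact test. All members but Sp9 varied less in cKO, so r there rests on small differences, and r over all arrays gives more weight to the WT embryos.

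**Figure D4:**
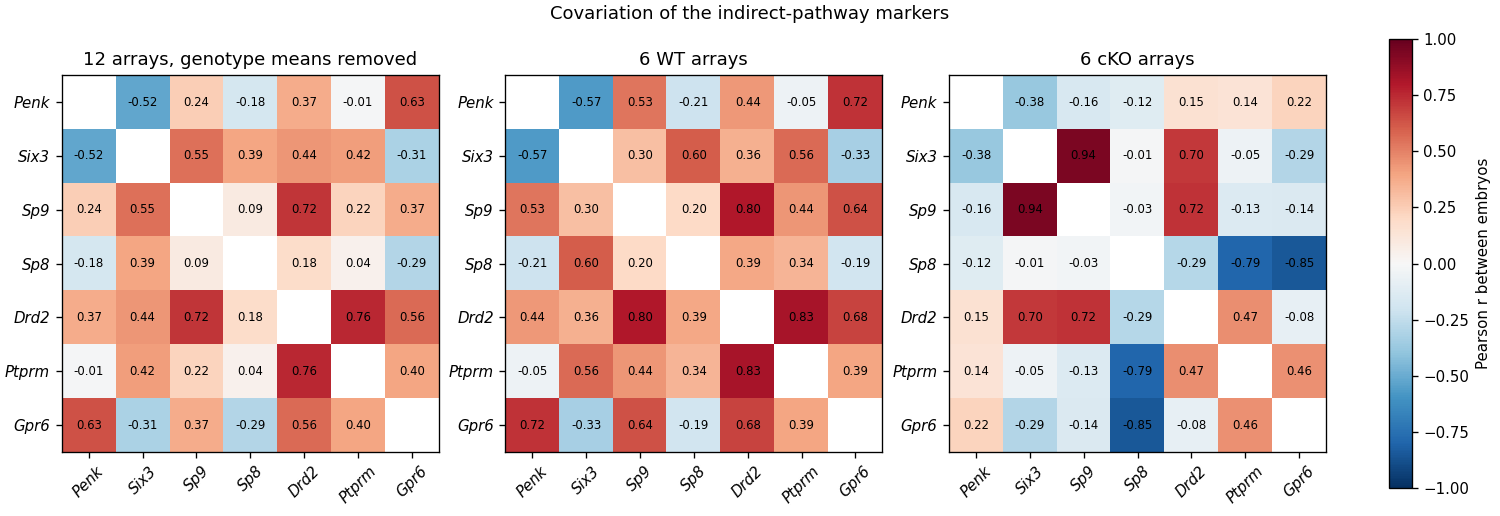
Pearson r between embryos for each pair of members, over 12 arrays with genotype means removed (left), in 6 WT arrays (middle) and in 6 cKO arrays (right); blue is negative and red positive. Drd2 with Sp9 is red in every panel (0.72, 0.80 and 0.72), and Penk with Six3 is blue in every panel (-0.52, -0.57 and -0.38).

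For each member the named probe sets most like it were taken from 12287 candidates by within-genotype r over 12 arrays. With so many candidates the highest values are large by selection, and they are given as a description. Drd2 was most like Bcl11b (r = 0.89), Cyb5a (0.88) and S100a10 (0.86), with Penk nearest to Ank (0.91), Vldlr (0.89) and Lin37 (0.88). Six3 was nearest to Nfat5, Ptprs (both 0.92) and Plk1 (0.92). Sp9 was nearest to Map3k1 (0.93), L3hypdh (0.90) and Cacng7 (0.89), and Sp8 to Arf6 (0.88), Erg28 (0.87) and Tbp (0.86). Ptprm was nearest to Nfic (0.92), Nexn (0.90) and Ubald1 (0.88).

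Gpr6 was most like Foxo1 (r = 0.93), Pde7b (0.92) and Rem2 (0.90). Foxo1 and Pde7b fell in cKO, by 1.08 (limma adjusted p = 0.0141) and by 1.11 (limma adjusted p = 0.00241). The likeness to Pde7b came from the WT embryos, where r was 0.997 over 6 arrays, while it was -0.14 over the 6 cKO arrays. For Foxo1 it was 0.96 in WT and 0.51 in cKO. Nexn, on the Ptprm list, fell by 1.06 (limma adjusted p = 0.0175), with r of 0.97 in WT and 0.45 in cKO, and S100a10, on the Drd2 list, fell by 0.45 (limma adjusted p = 0.0277). The remaining 17 of the 21 likest genes had an adjusted p of 0.503 or more.

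Genes that surround the members in the pathway were taken from lists of known roles. These lists and the marker lists below share genes, so their counts are not independent. Adk is counted among both the other indirect-pathway and the adenosine genes. Tshz1 is counted again among the neuroblast markers and Pde10a among the projection neuron markers. Of 6 other genes enriched in indirect-pathway neurons 0 passed over all genes in limma, while 1 higher and 2 lower had p under 0.05 before adjustment, and the median change was -0.049. The shares of all probe sets with p under 0.05 before adjustment, 5.06% higher and 5.67% lower, stand beside this and the later lists. Values were 0.05 for Plxdc1 (adjusted p = 0.128), the 1 higher gene, whose probe set lay below the median of all probe set means, and -0.15 for the adhesion gene Ajap1 (adjusted p = 0.235). Of 13 factors that act upstream in the ganglionic eminence 1 passed as higher and 1 as lower. The zinc finger gene Tshz1 rose by 0.36 ± 0.05, and the Ikaros factor gene Ikzf1 fell by 0.59 ± 0.07. Their limma adjusted p were 0.0122 and 0.00353, the list median was 0.093, and before adjustment 6 were higher and 2 lower with p under 0.05. With the cortical level as a covariate, where 56 probe sets passed in all, Tshz1 kept a change of 0.33 (adjusted p = 0.0961).

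Of 24 genes of D2 receptor coupling and cAMP signalling, 1 passed in limma as lower and 0 as higher. By sign alone, 14 changes were negative and 10 positive. Pde10a, a phosphodiesterase that degrades cAMP and cGMP, fell by 0.59 ± 0.09 (limma adjusted p = 0.00869), and by 0.57 with the cortical covariate, where it missed the threshold (adjusted p = 0.0688). Before adjustment 9 had p under 0.05, of which 1 was higher and 8 lower, and the list median was -0.012. Of 12 genes of enkephalin processing and opioid peptides and receptors 0 passed, while 0 higher and 4 lower had p under 0.05 before adjustment, and the median change was -0.046. By sign alone, 9 of these 12 changes were negative and 3 positive. The enkephalin-degrading peptidase gene Mme had a value of -0.12 (adjusted p = 0.284) and the convertase chaperone gene Scg5 one of -0.14 (adjusted p = 0.297). Both were of sign opposite to Penk. Over all arrays Mme averaged only 0.18 above the array median, and the part of low signal in its value was not tested.

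Of 9 genes of adenosine supply and reception 0 passed, while 1 higher and 2 lower had p under 0.05 before adjustment, and the median change was 0.0021. Values were -0.16 for the nucleoside transporter gene Slc29a1 (adjusted p = 0.262) and -0.14 for the adenosine kinase gene Adk (adjusted p = 0.398). Of 19 paralogues of the members 0 passed, while 1 higher and 1 lower had p under 0.05 before adjustment, and the median change was -0.0065. The smallest p-values were those of Sp4, at 0.09 (adjusted p = 0.354), and Gpr3, an orphan receptor gene related to Gpr6, at -0.10 (adjusted p = 0.408). In limma 0.728% of all probe sets passed.

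Direct-pathway counterparts were set beside the members as a description, with the pairs chosen knowing their values. Drd1 had a change of 0.04 ± 0.15 (SE) and Drd2 of 0.04 ± 0.07 (SE), and the interval of Drd2 minus Drd1 ran from -0.34 to 0.34. Among the peptide genes, Tac1, the substance P precursor gene of direct-pathway neurons, had a change of -0.55 ± 0.12 (SE; limma adjusted p = 0.0653), and Pdyn, the dynorphin precursor gene, one of -0.08 ± 0.03 (SE; limma adjusted p = 0.420). The change of Penk lay 0.93 ± 0.09 (SE) above that of Tac1 and 0.46 ± 0.08 (SE) above that of Pdyn. Over all arrays Pdyn averaged only 0.34 above the array median, and the part of low signal in its gap was not tested.

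Markers of other cells were read on the same arrays, as the mean log2 level of each list per array. Cholinergic interneuron markers (5 measured) spanned 5.86 to 6.04 over WT and 5.87 to 5.98 over cKO, with Chat and Slc5a7 below the median of all probe set means. Markers of dorsal ganglionic eminence and olfactory bulb neuroblasts (7 measured) spanned 7.02 to 7.22 over WT and 7.20 to 7.26 over cKO. Of the 7, 6 were positive, 3 were higher with p under 0.05 before adjustment, and 1, Tshz1, passed in limma as higher. The part of these cells in the values of Sp8, Sp9 and Six3 was not tested. Cortical neuron markers (7 measured) spanned 6.00 to 6.32 over WT and 5.98 to 6.64 over cKO. All 7 were positive with a median change of 0.065, and 0 passed in limma. The 2 with p under 0.05 before adjustment were Neurod6, at 0.51, and Neurod2, at 0.41, against 0.38 for Penk. These were named after their values were seen, and the others ran from 0.015 (Emx1) to 0.34 (Tbr1). Slc17a7 and Emx1 lay below the median of all probe set means. With a covariate for cortical signal (the mean of 3 genes) the change of Penk was 0.40, of Six3 0.38, of Gpr6 -0.31 and of Drd2 0.07, none of which passed in limma.

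Among the neuronal lists, markers of all projection neurons, the targeted gene left out (10 measured), spanned 9.26 to 9.48 over the WT arrays and 9.07 to 9.25 over the cKO arrays, so that the lowest WT and the highest cKO array nearly met. Of these 10 genes 1 passed in limma as lower, Pde10a, and the median change was -0.14. By sign 6 were negative and 4 positive, and before adjustment 4 were lower and 1 higher with p under 0.05. The higher one was Gad1, at 0.16 (limma adjusted p = 0.128). Direct-pathway markers (10 measured) spanned 7.75 to 7.996 over WT and 7.67 to 7.86 over cKO, with a median change of -0.056. Of these 1 passed in limma as higher, Zfp521, by 0.58 (limma adjusted p = 0.0153), and 5 had a negative change with an unadjusted p under 0.05. Markers of interneurons of the medial ganglionic eminence (5 measured) spanned 8.99 to 9.15 over WT and 9.14 to 9.30 over cKO, with a median change of 0.015. Of these 1 passed in limma as higher, Maf, by 0.57 (limma adjusted p = 0.0150). The others were Sst at 0.14, Npy at 0.015, Nkx2-1 at 0.014 and Lhx6 at -0.02. Zfp521 and Maf are named because they passed, after their values were seen.

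Radial glia and progenitor markers (6 measured) spanned 8.14 to 8.42 over WT and 8.30 to 8.51 over cKO, with a median change of 0.12. All 6 were positive, 3 of them at an unadjusted p under 0.05, and 0 passed in limma. Oligodendrocyte, microglial, endothelial and pallidal or septal markers had medians of 0.020, 0.0040, 0.012 and 0.014, with 0 at an unadjusted p under 0.05 and 0 passing in limma. The part of these cell types in the members' values was not tested.

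**Figure D5:**
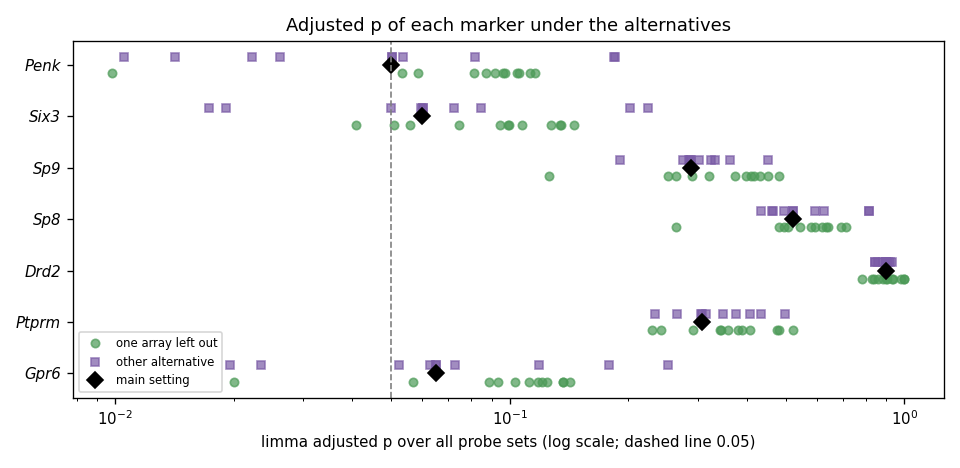
Limma adjusted p over all probe sets (log axis) of each member in the main setting (diamond), with 1 array left out (circles) and under the other alternatives (squares); the dashed line is 0.05. Penk, Six3 and Gpr6 have points on both sides of the line, and the other 4 members have none below it.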

How the data were processed

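The deposited table held 1 log2 expression value per probe set and array, made by the authors with RMA, per the submitters' processing notes. RMA corrects background, gives arrays a shared distribution and summarises probes. Array model, scanner and software are not given in the sources used here. Sorted values differed by at most 0.00187 between arrays, so a change common to all genes would not be visible. Values ran from 5.21 to 13.99. The number of arrays limits the precision. Probe sets, 1 per gene identifier, were named from the platform annotation (24674 with 1 symbol, 0 with several, 754 unnamed).

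Groups follow the sample titles, which call the samples biological replicates. The main test was limma 3.58.1 (lmFit, eBayes, two-sided) in R 4.3.3 over all probe sets, without covariates, with Benjamini-Hochberg adjusted p-values and a threshold of 0.05. Pair differences used exact permutation, and correlations 100000 permutations within genotype, or all orders within 1 genotype (Python 3.11.15, scipy 1.17.1). Intervals of pair differences rest on the spread within genotypes. The limma fit and the exact permutation test were tested on simulated data, with changes larger than those of the members. Recovery of changes of the members' size was not examined. Members and lists were chosen with earlier results of these data known. Named are all members, up to 4 list genes past the threshold or else the 2 with the smallest p, and the 3 likest probe sets per member; Foxo1, Pde7b, Nexn and S100a10 come from the last group. Alternatives were array weights, a robust prior with a trend, the removal of dim probe sets, quantile and loess normalization, median centring, a replicate block, Y-linked (3 genes, not the 4 planned) and cortical (3 genes, not 4) covariates, and leaving out arrays. WT replicates 3 and 6 were left out together because earlier results had them as least correlated with their group. Foxp1 was left out of the projection neuron markers after seeing the data.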

Additional observations from a re-analysis of the deposited data

Results flagged for a closer look

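No member of the indirect-pathway group had an array far from the others of its genotype. Over the members and the related genes named above, 4 of 36 sets of 6 arrays, all 4 of related genes, held one whose gap to the nearest other exceeded 0.625 of the range (Dixon's criterion), and chance marks about 1 in 20. The highest cKO array stood apart for Ajap1, where replicate 4 read 7.13 and the next 7.02, and for Adk, where replicate 4 read 6.80 and the next 6.65. It did so for Ikzf1 too, where replicate 1 read 6.28 and the next 6.11. The lowest cKO array stood apart for Gpr3, where replicate 3 read 5.79 and the next 5.88.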

How the results depend on the processing

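The count of members passing, 0 in the main setting, was 3 with dim probe sets left out (2.19% of 12714 probe sets passed) and 3 with a trended, robust prior (0.999% of all passed), in both cases Penk, Gpr6 and Six3. It was 1 with array weights and 1 without WT replicates 3 and 6, both times Penk, and from 0 to 2 when 1 array was left out: 1 without WT replicate 1 (Gpr6) and 2 without WT replicate 3 (Penk and Six3). Every other alternative gave 0. Signs held for all members in all 22 alternatives except Drd2, at -0.0017 without WT replicate 5 and at most 0.066 when another array was left out. Of the genes in the related lists 3 passed, against 9 with dim probe sets left out, 7 with the trended prior, 1 with the cortical covariate and 3 to 7 when 1 array was left out, 7 without WT replicate 1 and 5 without WT replicate 5.

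Same-numbered arrays did not deviate together (correlations from -0.22 to 0.15, and 0 of 12 arrays correlated best with their own number). The labels do not say whether the numbers pair embryos, and these correlations cannot decide it. With the replicate block 0 members and 0 related genes passed (Ikzf1, Tshz1 and Pde10a each at an adjusted p of 0.0718). In the sign-flip form of the block 0 of 21 pair differences passed (smallest exact permutation adjusted p = 0.0505). With 6 numbered pairs the smallest p that sign flips can give is 0.03125, which 13 of the 21 already reached, so that this form says little about stability. Otherwise 16 to 18 pairs passed when 1 array was left out. The count of covarying pairs was 0, and 0 to 1 when 1 array was left out, the 1 being Six3 with Sp9 without WT replicate 3. Without WT replicates 3 and 6, Sp8 and Ptprm missed the threshold (exact permutation adjusted p = 0.0529).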
